A study of Mus musculus with 16 samples.

Results

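Amino acid transporters were examined as 6 member genes, Slc7a5, Slc7a6, Slc3a2, Slc1a5, Slc38a1 and Slc38a2, out of the 16243 genes present in all 9 CD8 T cell matrices of a mouse kidney transplant series. They were named for their role and not picked by a threshold on their values, but with earlier results of these data known. Each was followed in CPM, the UMIs of a gene relative to all UMIs of its library and class, scaled to a common total, in the cells of every library that held a UMI of Cd8a or Cd8b1. Cells with a UMI of at least 2 of 4 proliferation genes, Mki67, Top2a, Birc5 and Stmn1, formed the dividing class, and the remaining cells the other class. Of 72639 cells in the matrices, 56585 held a CD8 UMI, and these divided into 6257 dividing and 50328 other cells.

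An activated T cell must import large amounts of leucine, glutamine and other amino acids before it can grow and divide. Slc7a5 encodes LAT1, a light chain that exchanges large neutral amino acids such as leucine and tryptophan, and Slc7a6 encodes y+LAT2, a light chain that exchanges cationic for neutral amino acids. Both light chains reach the cell surface only when bound to the heavy chain CD98hc, which is encoded by Slc3a2. Slc1a5 encodes ASCT2, a sodium-dependent exchanger of small neutral amino acids including glutamine. Slc38a1 and Slc38a2 encode SNAT1 and SNAT2, sodium-coupled importers of glutamine, alanine and related amino acids. In T cells these carriers are known to be induced by antigen receptor signaling and MYC, and Slc3a2 and Slc38a2 also by the ATF4 pathway that answers amino acid shortage.

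The single-cell RNA-seq libraries came from wild-type mice and were prepared from viable CD45+ cells, from which the authors extracted the CD8 T cells. Accepted grafts were DBA/2J kidneys placed in C57BL/6J recipients, taken with the recipient spleens after 1 week (3 libraries per tissue), 3 weeks (5 per tissue) and 24 weeks (3 per tissue). Rejecting grafts were C57BL/6J kidneys placed in DBA/2J recipients and taken after 1 week, with 2 graft and 3 spleen libraries, and 5 naive spleens served as the untransplanted reference. The labels give C57BL/6J as the strain of every sample, so the direction of the strain combinations was taken from the text of the paper. Recipient strain and outcome therefore change together between accepted and rejecting grafts and cannot be told apart. Library tags in the cell barcodes were read as separate mice, which was not tested. Among the pairs of libraries with the most barcodes in common, the largest share was 0.426% of the smaller library. The age of the mice is not given in the sources used here, and all were male.

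The share of matrix cells that held a CD8 UMI was uneven between groups. It was 44.2% and 46.8% in recipient spleens at 1 and 3 weeks and 47.4% in libraries labelled graft at 24 weeks. It was 84.8% and 96.8% in accepted grafts at 1 and 3 weeks and 94.6% in libraries labelled spleen at 24 weeks. Rejecting grafts had 77.2%, rejecting spleens 100% and naive spleens 96.1%. Its part in the differences was not tested. The other cells of a library summed to between 139816 and 10775716 UMIs. The CD8 markers summed to between 958 and 2660 CPM in every library of other cells. Markers of 4 B cell genes were uneven, at 413 to 822 CPM in recipient spleens at 1 week, 101 to 287 CPM in recipient spleens at 3 weeks, 28.0 to 55.8 CPM in naive spleens and 9.07 to 10.1 CPM in accepted grafts at 1 week. The 5 myeloid genes summed to 37.0 to 101 CPM in accepted grafts at 1 week and 128 to 166 CPM in rejecting grafts, against 2.31 to 7.79 CPM in naive spleens. The part of these cells in the differences was tested only by leaving out every cell with a UMI of Cd4, Cd79a, Ms4a1, Lyz2 or Csf1r, genes of other lineages. Of 10 kidney parenchyma markers, 3 (Gpx3, Slc34a1 and Fxyd2) were present in all matrices. All 3 were higher in the graft than in the spleen at 1 and at 3 weeks, and all 3 were higher in the libraries labelled spleen at 24 weeks (summed mean 3.19 CPM against 0.277 CPM). In the rejection model the 3 markers did not separate the tissues, with 2 higher in the graft and 1 in the spleen (0.986 CPM against 1.05 CPM). By these 3 markers, all of low level, the 24-week libraries went against their labels. Whether the labels are right was not tested, other assays of the study at that time are not analysed here, and the libraries are named by label only.

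On the mm10 mouse genome (GRCm38 coordinates), Slc7a5 lies at chr8:121881150-121907694 on the minus strand and Slc7a6 at chr8:106168857-106198706 on the plus strand. Slc3a2 lies at chr19:8706882-8723369 on the minus strand and Slc1a5 at chr7:16781340-16798274 on the plus strand. Slc38a1 and Slc38a2 are neighbors on the minus strand, at chr15:96571418-96642913 and chr15:96687392-96699730. Their total intron length ranged from 3.50 kb in Slc38a2 to 54.3 kb in Slc38a1, a property given here for the comparison of rejecting with accepted grafts.

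Promoter windows in the RefSeq-derived table (GRCm38.p6) matched 3 members, Slc3a2, Slc7a6 and Slc38a2. Neither the E-box CACGTG, the core motif bound by MYC, nor TGATGNAA, a composite element bound by ATF4, was found on either strand of these 300-base windows. They occurred in 7.15% and 3.97% of the 32851 windows of the table. With plain library totals, Slc38a2 and Slc3a2 were the members higher in accepted grafts at 1 week than in naive spleens by the test below. The Slc3a2 window lies within the span of its gene and is not shown. The stretch shown is the part of the Slc38a2 window upstream of its annotated transcript. It holds 240 bases at chr15:96699739-96699978, read on the minus strand, with the capitals marking a GC box (GGGCGG on either strand), a motif held by 31.3% of all stretches of this length.
Slc38a2 promoter: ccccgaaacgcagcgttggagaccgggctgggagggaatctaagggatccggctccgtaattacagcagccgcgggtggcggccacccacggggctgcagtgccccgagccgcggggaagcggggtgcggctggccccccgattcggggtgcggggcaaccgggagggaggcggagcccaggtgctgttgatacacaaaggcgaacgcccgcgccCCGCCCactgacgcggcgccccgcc
No match says only that these letters were not in these windows.

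Slc7a5, the LAT1 light chain, was scarce in other CD8 T cells of all groups of the acceptance model and lowest in accepted grafts at 3 weeks. The 5 naive spleens held 8.45, 8.38, 8.76, 7.32 and 6.71 CPM, and the 3 accepted grafts at 1 week held 8.13, 7.88 and 8.82 CPM. At 3 weeks the 5 accepted grafts held 2.78, 3.30, 3.01, 1.96 and 3.72 CPM. Every graft at 3 weeks was below every graft at 1 week and every naive spleen. Recipient spleens did not share the fall, with 7.41, 7.34 and 5.38 CPM at 1 week and 7.6, 8.43, 6.83, 8.80 and 11.8 CPM at 3 weeks. Both rejecting grafts, at 27.6 and 24.5 CPM, and the 3 rejecting recipient spleens, at 43.0, 50.1 and 38.6 CPM, stood above every other library. In the order of group means, the rejecting spleen (43.9 ± 5.76 CPM, SD, n = 3) and the rejecting graft (26.1 ± 2.20 CPM, n = 2) did not overlap with each other or with the next group. All later neighbors in that order, from the recipient spleen at 3 weeks (8.70 ± 1.91 CPM, n = 5) to the accepted graft at 3 weeks (2.95 ± 0.657 CPM, n = 5), overlapped in their libraries. These values rest on few molecules, from 52 UMIs over the 3 spleen-labelled libraries at 24 weeks to 184 UMIs over the 3 accepted grafts at 1 week.

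Slc7a6, the y+LAT2 light chain, held 4.93 to 14.1 CPM in the libraries of the acceptance model and naive spleens. Its mean was 11.9 ± 1.59 CPM (SD, n = 5) in naive spleens, 10.7 ± 0.268 CPM (n = 3) in accepted grafts at 1 week and 13.05 ± 0.764 CPM (n = 5) at 3 weeks. Rejecting spleens held 22.2, 21.5 and 18.5 CPM and rejecting grafts 27.6 and 47.6 CPM, all above every library of the acceptance model. These values rest on 29 UMIs over the rejecting spleens and 75 UMIs over the rejecting grafts. With cells thinned to 1000 UMIs, rejecting spleens held 10.3 ± 11.3 CPM (0 to 22.3 CPM) and overlapped with naive spleens (8.37 to 21.5 CPM). Thinned rejecting grafts held 24.2 to 42.3 CPM. From the accepted graft at 3 weeks down to the libraries labelled graft at 24 weeks (8.10 ± 3.13 CPM, n = 3), neighbors in the order of group means overlapped.

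Slc3a2, the CD98 heavy chain that both light chains need, rose in the accepted graft from 1 to 3 weeks, where Slc7a5 fell. Naive spleens held 85.9, 86.7, 101, 92.2 and 81.6 CPM. Accepted grafts held 292, 290 and 218 CPM at 1 week and 422, 490, 493, 511 and 523 CPM at 3 weeks. The 3 sets of libraries did not overlap, and each step was upward. Recipient spleens stayed between 110 and 137 CPM at 1 week and between 124 and 133 CPM at 3 weeks, above every naive spleen and below every accepted graft of these times. Rejecting grafts held 166 and 98.0 CPM and rejecting spleens 128, 143 and 102 CPM, which overlapped. At 24 weeks, the libraries labelled spleen held 580, 502 and 520 CPM and those labelled graft 131, 151 and 144 CPM.

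Slc1a5, the glutamine exchanger ASCT2, was highest in rejecting grafts, at 102 CPM in both libraries. Accepted grafts held 58.0, 49.4 and 40.2 CPM at 1 week and 85.6, 99.6, 98.2, 91.0 and 98.2 CPM at 3 weeks, without overlap. Naive spleens held 40.5 to 45.3 CPM, with a median of 45.2 CPM. The accepted graft at 1 week, the recipient spleen at 3 weeks and the naive spleen were neighbors in the order that overlapped.

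Slc38a1, the SNAT1 importer, rose within accepted grafts as well, from 152, 140 and 139 CPM at 1 week to 246, 246, 249, 227 and 258 CPM at 3 weeks. Naive spleens held 131 ± 9.35 CPM (SD, n = 5) and recipient spleens 94.8 ± 8.42 CPM (n = 3) at 1 week and 134 ± 6.99 CPM (n = 5) at 3 weeks. The rejecting grafts were far apart, at 277 and 159 CPM, and overlapped with the accepted grafts at 3 weeks. Slc38a2, the SNAT2 importer, held 221, 214 and 197 CPM in accepted grafts at 1 week and 233, 317, 291, 328 and 318 CPM at 3 weeks. Naive spleens held 133 ± 13.8 CPM of Slc38a2, all below the accepted grafts. The 2 rejecting grafts, at 415 and 196 CPM, and the 3 rejecting spleens, at 357, 136 and 296 CPM, covered almost the whole range of this gene, so that no order among the upper groups could be read.

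**Figure D1:**
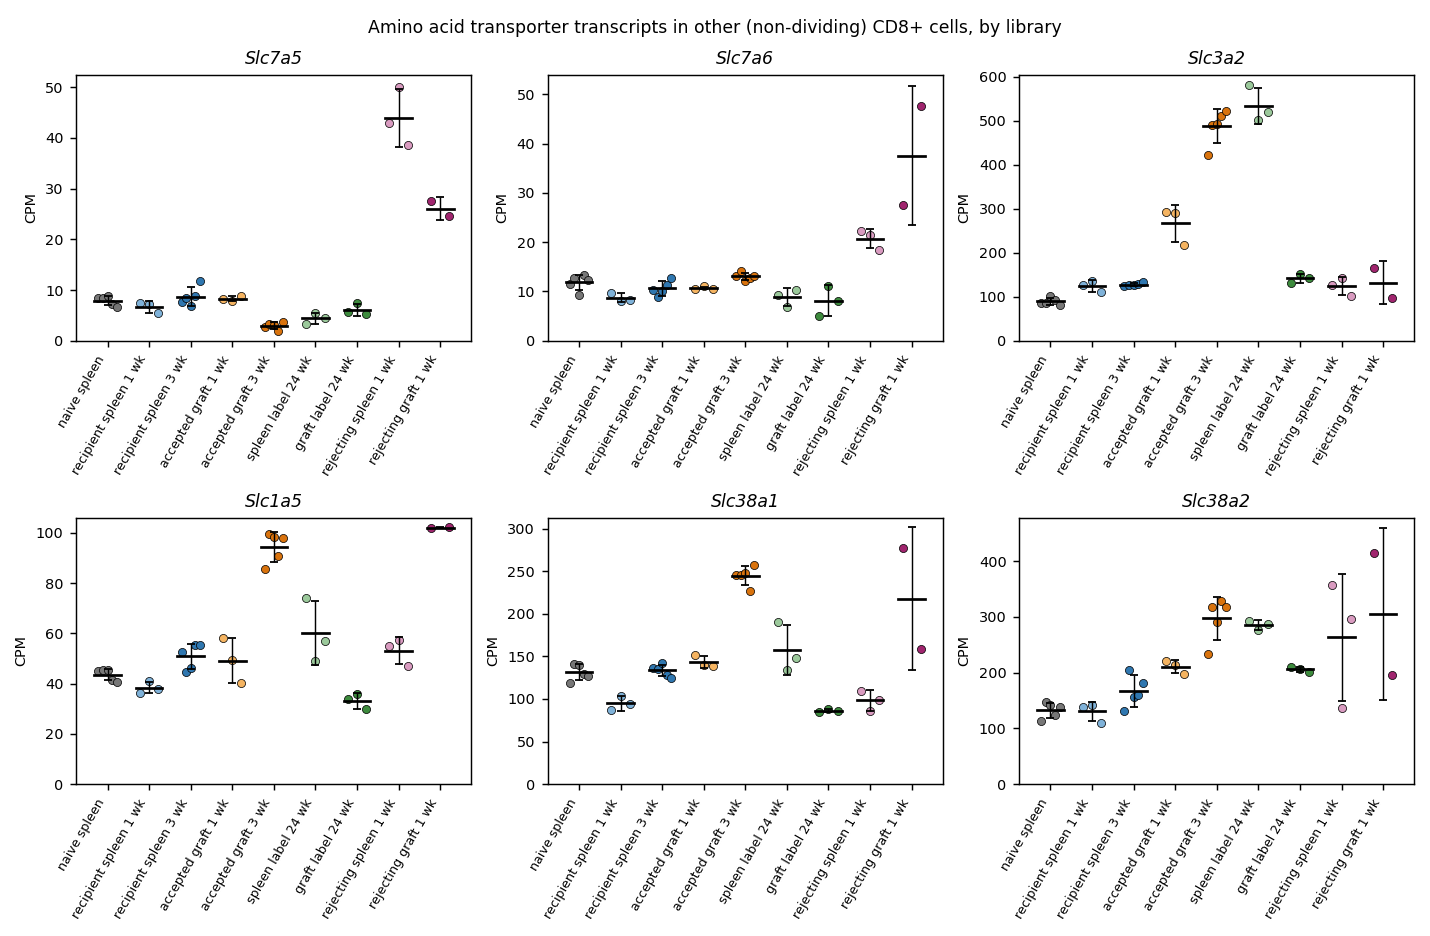
CPM of the 6 members (vertical axis, from 0) in other CD8+ cells of 9 groups; each point is 1 library, the horizontal bar is the mean and the whisker the SD. Slc7a5 is lowest in the accepted graft at 3 weeks (mean 2.95 CPM) where Slc3a2 is at 488 CPM, and the rejecting groups hold the highest Slc7a5 and Slc7a6.

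The first comparison asked how other CD8 T cells of the accepted graft at 1 week differed from those of naive spleens. Of the 6 members, 2 were called, both higher, against 66.9% of all 12147 genes tested (28.9% higher). A call means an adjusted p under 0.05 in edgeR's quasi-likelihood fit to the whole table, here and in every comparison that follows. Slc3a2 was 2.98-fold higher (log2 fold change 1.57 ± 0.10 SE, adjusted p = 1.38e-16) and Slc38a2 1.59-fold higher (0.67 ± 0.14, adjusted p = 9.48e-05). The median of all genes was -0.15 on the log2 scale, so Slc3a2 stood 1.73 above it. Slc7a5 (0.06 ± 0.18), Slc7a6 (-0.15 ± 0.16), Slc1a5 (0.17 ± 0.11) and Slc38a1 (0.13 ± 0.10) did not pass the test. With library factors that bring the all-gene median to 0, Slc1a5 (0.32, adjusted p = 0.0045) and Slc38a1 (0.28, adjusted p = 0.015) passed too, which made 4 called members. Both also passed under DESeq2 and with the intron length shift removed, and Slc1a5 passed without graft replicate 3 (0.30, adjusted p = 0.0195). Over all genes, 43.2% of the calls were higher with plain totals and 52.0% with those factors. B cell and myeloid markers moved with this comparison, and so did CD4 T cell markers, at 8.66 to 21.1 CPM in grafts and 2.93 to 5.78 CPM in naive spleens. Without the cells holding a UMI of another lineage 2 members were again called. With dividing and other cells summed together, Slc7a5 was called as well (0.60, adjusted p = 0.00240).

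Fewer transcripts per cell and fewer cells of a kind that expresses a gene cannot be told apart in these sums over cells.

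Among the lists of genes around these transporters, the same comparison moved genes in both directions. Of 12 other amino acid transporters tested, 1 was higher and 6 were lower, and the list median was -0.48 against -0.15 for all genes. Slc43a2, which encodes the LAT4 carrier of neutral amino acids, fell by 1.33 and Slc38a9, a lysosomal arginine sensor, fell by 0.92 on the log2 scale. Of 25 genes of amino acid sensing by mTORC1, 7 were higher and 10 lower. Both shares were close to those of all 12147 genes tested, of which 3511 were higher and 4615 lower. Lamtor4 and Lamtor5, subunits of the Ragulator scaffold on the lysosome, were higher by 1.58 and 1.32, whereas Sesn1, a sestrin that restrains mTORC1, fell by 1.31 and Sesn3 fell by 0.67. Of 15 tested genes of the GCN2 and ATF4 response, 8 were higher and 1 lower, with Cebpb, a stress-induced transcription factor, higher by 3.23 and Psph, an enzyme of serine synthesis, by 1.05. Of 13 genes of glutamine and branched-chain amino acid use, 7 were higher and 2 lower. Odc1, the polyamine synthesis enzyme, was higher by 2.35 and the aspartate aminotransferase Got1 by 2.08. Of 19 aminoacyl-tRNA synthetases, which charge transfer RNA with amino acids, 5 were higher and 9 lower, with Kars higher by 0.49 and Tars by 0.41, while Farsb fell by 0.60 and Dars fell by 0.58. Of 15 genes of MYC and growth nutrients, 11 were higher and 2 lower. Mxd1, which competes with MYC for its partner MAX, was higher by 2.11 and Ldha by 0.74, whereas Myc itself fell by 0.87 and Nolc1 fell by 0.81.

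The next comparison followed the accepted graft from 1 to 3 weeks. Here 5 of the 6 members were called, 4 higher and 1 lower, against 68.4% of all genes (52% higher and 16.5% lower). Slc7a5 fell to 0.359 of its level at 1 week (log2 fold change -1.48 ± 0.18 SE, adjusted p = 1.73e-09). Slc1a5 was 1.93-fold higher (0.95 ± 0.10, adjusted p = 1.17e-10), Slc3a2 1.83-fold (0.87 ± 0.10, adjusted p = 1.87e-09), Slc38a1 1.71-fold (0.77 ± 0.10, adjusted p = 1.64e-08) and Slc38a2 1.41-fold (0.49 ± 0.14, adjusted p = 0.00273). Slc7a6 did not pass (0.28 ± 0.14, adjusted p = 0.0806). It was called higher with cells thinned to 1000 UMIs (0.55, adjusted p = 0.0213) and in the fit of only the groups compared (0.28, adjusted p = 0.0428), and was below 0 and not called with rescaled libraries, under DESeq2 and with the intron length shift removed. The median of all genes was itself 0.45, so that relative to it Slc7a5 was at -1.92, Slc1a5 at 0.50, Slc3a2 at 0.43, Slc38a1 at 0.33 and Slc38a2 at 0.05. Slc7a5 was at percentile 2.63 of all genes by log2 fold change. With factors that bring the median near 0, the call of Slc38a2 ended (0.10, adjusted p = 0.585), as it did under DESeq2 (0.08, adjusted p = 0.714), and the share of higher calls over all genes went from 75.9% to 51.4%. The call of Slc38a1 ended when the shift shared by genes of like intron length was taken out (0.19, adjusted p = 0.102). B cell markers were at 9.07 to 10.1 CPM at 1 week and 11.7 to 26.5 CPM at 3 weeks, CD4 T cell markers at 8.66 to 21.1 CPM and 4.64 to 8.55 CPM, and myeloid markers at 37.0 to 101 CPM and 44.2 to 114 CPM. Without cells holding a UMI of another lineage 5 members were again called, 4 higher and 1 lower.

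Other amino acid transporters were higher at 3 weeks than at 1 week in 10 of 12 tested genes, with a median of 0.98 against 0.45 for all genes. Slc16a10, the TAT1 carrier of aromatic amino acids, was higher by 1.4 and Slc38a9 by 1.01. In mTORC1 sensing, 14 of 25 genes were higher and 4 lower, close to the 52% and 16.5% of all genes. Tsc1, a brake on mTORC1, was higher by 1.57 and Rptor, a core subunit of the complex, by 1.12, whereas Lamtor5 fell by 0.82 and Lamtor1 fell by 0.62. The GCN2 and ATF4 list split evenly, with 5 of 15 genes higher and 5 lower. Atf4 was higher by 0.67 and Ddit3 by 0.51, whereas the serine synthesis enzymes Phgdh and Psph fell by 0.86 and by 0.85. In glutamine and branched-chain amino acid use 3 of 13 genes were higher and 4 lower, and in MYC and growth nutrients 5 of 15 were higher and 6 lower. Mxd4, another MYC competitor, and Mxd1 were higher by 1.81 and by 0.95, and the lactate dehydrogenase Ldha fell by 0.92. These list values are from plain totals and were not repeated with rescaled libraries or with the intron length shift removed. In this comparison the median change was 0.29 in the tenth of genes with the shortest introns and 0.79 in the tenth with the longest.

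Comparison of the graft with the recipient spleen asked which members differed by tissue within the same model. At 1 week 4 members were called, all higher in the graft, against 44.6% of all genes (25.4% higher). Slc3a2 was 2.14-fold higher (log2 fold change 1.10 ± 0.12, adjusted p = 3.40e-10), Slc38a2 1.62-fold (0.70 ± 0.16, adjusted p = 5.71e-04), Slc38a1 1.51-fold (0.60 ± 0.12, adjusted p = 4.45e-05) and Slc1a5 1.28-fold (0.36 ± 0.12, adjusted p = 0.0146). The call of Slc1a5 ended without graft replicate 1 (0.22, adjusted p = 0.154), without spleen replicate 1 (0.32, adjusted p = 0.0617) and with cells thinned to 1000 UMIs (0.44, adjusted p = 0.0541). Slc7a5 (0.32 ± 0.20, adjusted p = 0.195) and Slc7a6 (0.30 ± 0.18, adjusted p = 0.187) did not pass. B cell markers were at 9.07 to 10.1 CPM in these grafts and 413 to 822 CPM in the spleens, and myeloid markers at 37.0 to 101 CPM and 13.4 to 21.2 CPM. The 4 members were again called without cells holding a UMI of another lineage. Among the lists, 10 of 15 genes of MYC and growth nutrients were higher and 2 lower, with Mxi1 higher by 2.68 and Mxd1 by 2.24, while Myc fell by 0.75 and Nolc1 fell by 0.31. In glutamine and branched-chain amino acid use 7 of 13 genes were higher and 1 lower, in the GCN2 and ATF4 list 6 of 15 were higher and none lower, in mTORC1 sensing 6 of 25 were higher and 3 lower, among synthetases 5 of 19 were higher and 1 lower, and among other transporters 2 of 12 were higher and 3 lower.

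At 3 weeks 5 members were called in the graft against the spleen, against 60.6% of all genes (43.9% higher and 16.8% lower). Over all genes 72.3% of the calls were higher with plain totals and 52.6% with rescaled libraries. Slc3a2 was 3.82-fold higher in the graft (log2 fold change 1.93 ± 0.10, adjusted p = 9.71e-21), and Slc1a5 (0.90 ± 0.10), Slc38a1 (0.87 ± 0.09) and Slc38a2 (0.83 ± 0.13) were higher too. Slc7a5 was lower, at 0.346 of the spleen level (-1.53 ± 0.19, adjusted p = 4.19e-09), and Slc7a6 did not pass (0.30 ± 0.15, adjusted p = 0.0859) except in the fit of only the groups compared (0.30, adjusted p = 0.0492). The median of all genes was 0.28. Markers of other lineages moved with this comparison, with myeloid genes at 44.2 to 114 CPM in grafts and 2.76 to 12.5 CPM in spleens. B cell genes were at 11.7 to 26.5 CPM and 101 to 287 CPM, and CD4 T cell genes at 4.64 to 8.55 CPM and 9.67 to 23.2 CPM. Without cells holding a UMI of another lineage 5 members were again called. Of 12 other transporters 6 were higher and 2 lower, and among them Slc16a10 was higher by 4.17. Slc43a2 fell by 0.88 and the cationic amino acid carrier Slc7a1 fell by 0.57. Cebpb was higher by 2.90 and Ddit3 by 1.44 in the GCN2 and ATF4 list, where 8 of 15 genes were higher and 3 lower. Of 15 genes of MYC and growth nutrients 7 were higher and 6 lower, with Mxi1 and Mxd4 higher by 2.57 and 2.22, while Npm1 fell by 0.75 and Nolc1 fell by 0.41. Of 25 mTORC1 sensing genes 11 were higher and 2 lower, and of 19 synthetases 3 were higher and 6 lower.

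**Figure D2:**
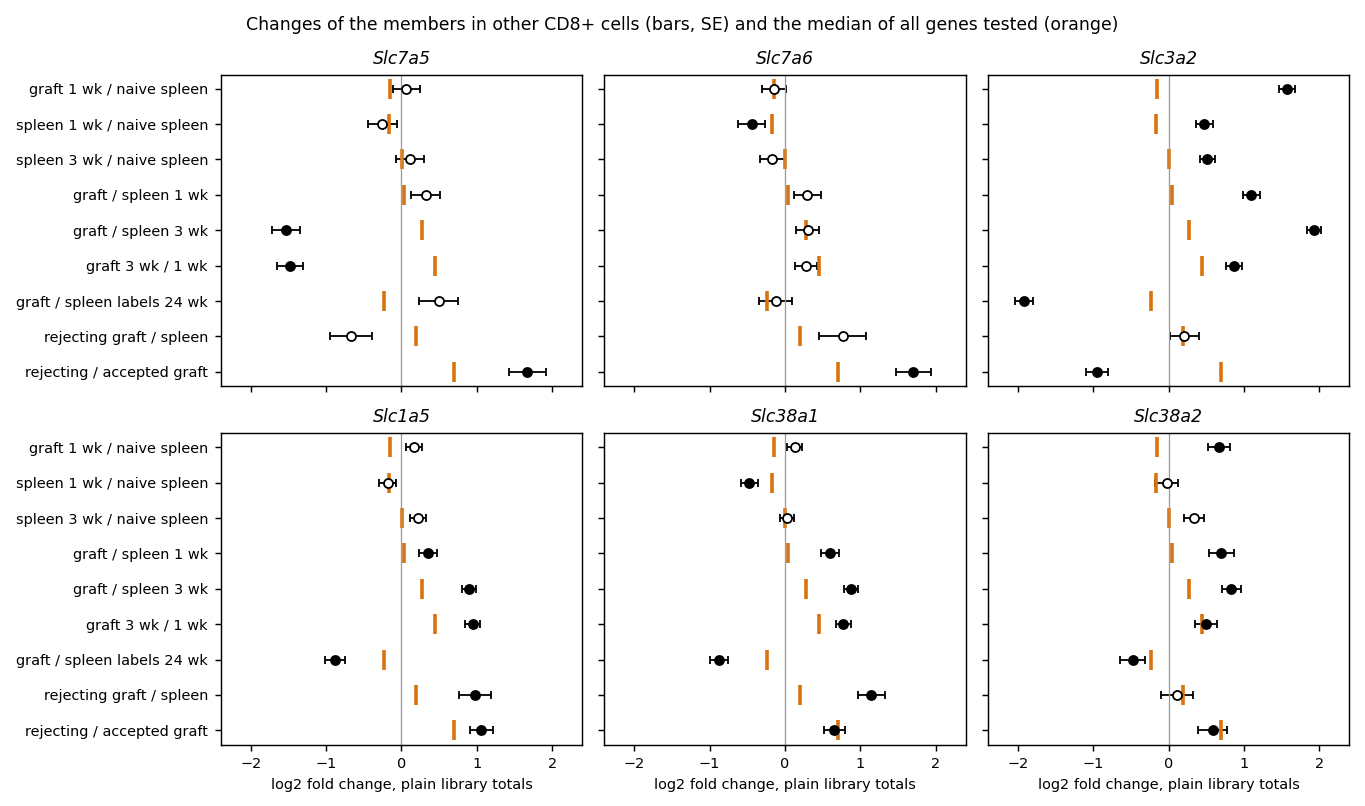
Log2 fold change of each member (horizontal axis) in 9 comparisons of other CD8+ cells, with bars for the SE; filled circles passed an adjusted p of 0.05, open circles did not, and the orange mark is the median of all genes tested. Slc3a2 and Slc7a5 lie on opposite sides of 0 in the graft at 3 weeks against 1 week (0.87 and -1.48) and in the rejecting against the accepted graft (-0.95 and 1.67).

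Recipient spleens were also compared with naive spleens. At 1 week against naive spleens 3 members were called, against 47.3% of all genes (16.5% higher and 30.7% lower). Of all calls 35.0% were higher with plain totals and 54.2% with rescaled libraries. Slc3a2 was 1.39-fold higher (log2 fold change 0.47 ± 0.11, adjusted p = 4.08e-04), Slc38a1 was lower (-0.47 ± 0.11, adjusted p = 3.79e-04) and Slc7a6 was lower (-0.44 ± 0.17, adjusted p = 0.0336), where the median of all genes was -0.17. The call of Slc7a6 ended with rescaled libraries (-0.26, adjusted p = 0.217), under DESeq2, with the intron length shift removed, with thinned cells (-0.67, adjusted p = 0.126), with 3 against 0 division markers (-0.41, adjusted p = 0.0531) and without any of 5 libraries, namely recipient spleen replicates 2 and 3 (-0.40 and -0.41) and naive spleen replicates 2, 4 and 5 (-0.42, -0.39 and -0.43). The call of Slc38a1 ended when the intron length shift was removed (-0.17, adjusted p = 0.203). B cell markers were highest in these recipient spleens, and without cells holding a UMI of another lineage the 3 members were called as before. At 3 weeks Slc3a2 alone was called, 1.43-fold higher (0.51 ± 0.10, adjusted p = 4.89e-04), against 7.98% of all genes (4.77% higher). B cell markers were at 101 to 287 CPM in these recipient and 28.0 to 55.8 CPM in naive spleens, and CD4 T cell markers at 9.67 to 23.2 CPM and 2.93 to 5.78 CPM. Without cells holding a UMI of another lineage Slc3a2 alone was again called (0.55). Slc38a2 stood at 0.33 ± 0.13 (adjusted p = 0.124). Slc38a2 passed without recipient spleen replicate 1 (0.41, adjusted p = 0.0496) and in the fit of only the groups compared (0.33, adjusted p = 0.0180). The call of Slc3a2 ended with cells thinned to 1000 UMIs (0.54, adjusted p = 0.0698).

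At 24 weeks 4 members were lower in the libraries labelled graft than in those labelled spleen, against 47.4% of all genes (34.2% lower). Of all calls 27.9% were higher in the graft label with plain totals and 47.7% with rescaled libraries. Slc3a2 was at 0.265 of the level in the spleen-labelled libraries (log2 fold change -1.91 ± 0.12, adjusted p = 7.56e-17). Slc1a5 (-0.88 ± 0.13), Slc38a1 (-0.87 ± 0.12) and Slc38a2 (-0.47 ± 0.16) were lower as well, and the median of all genes was -0.23. Slc7a5 (0.49 ± 0.26, adjusted p = 0.120) and Slc7a6 (-0.13 ± 0.22) did not pass. Rescaling ended the call of Slc38a2 (-0.24, adjusted p = 0.284) and called Slc7a5 as higher (0.73, adjusted p = 0.0225), and both changes were also seen under DESeq2 and with the intron length shift removed. The call of Slc38a2 also ended with thinned cells (-0.40, adjusted p = 0.0924), and Slc7a5 was also called with 3 against 0 division markers (0.67, adjusted p = 0.0424). The 3 kidney markers ran against the labels, as stated above, and the directions are those of the labels only. B cell markers were at 79.2 to 212 CPM in the libraries labelled graft and 14.1 to 43.2 CPM in those labelled spleen, and myeloid markers at 1.92 to 5.91 CPM and 10.1 to 31.5 CPM. In these libraries 4 members were again called without cells holding a UMI of another lineage. In the MYC and growth nutrient list 4 of 15 genes were higher and 8 lower in the graft label, with Myc higher by 1.02 and Npm1 by 0.65, while Mxi1 fell by 3.05 and Mxd4 fell by 2.37. In glutamine and branched-chain amino acid use 3 of 13 genes were higher and 7 lower, in the GCN2 and ATF4 list 2 of 15 were higher and 5 lower, in mTORC1 sensing 2 of 25 were higher and 9 lower, among synthetases 1 of 19 was higher and 2 lower, and among other transporters 1 of 12 was higher and 4 lower.

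Across the 32 libraries of other cells, the light chain Slc7a5 and its heavy chain Slc3a2 had a Pearson r of -0.556 on log2(CPM + 1). The opposition did not hold in every comparison. Both estimates were higher in the accepted graft than in the recipient spleen at 1 week, where Slc7a5 did not pass the test. Slc1a5 and Slc38a1 varied together most closely among the members (r = 0.870), and Slc3a2 followed Slc38a2 (r = 0.678). Slc7a5 and Slc7a6 had an r of 0.630, and the 5 libraries of the rejection model were highest in both genes. Between the tissues of that model the 2 genes ran in opposite order. Slc7a5 had a mean of 43.9 CPM in rejecting spleens and 26.1 CPM in rejecting grafts, and Slc7a6 20.7 and 37.6 CPM. These correlations, and the likenesses that follow, are descriptions over libraries that share groups and processing. The part of the rejection libraries and of intron length in them was not tested. Among 5178 genes averaging 20 CPM or more, the genes most like Slc7a5 were Eif2a (r = 0.939), Aff3 and Fgf13, and those most like Slc3a2 included Rgs2 (r = 0.954) and Cebpb (r = 0.952). Slc1a5 was most like Nfat5 (r = 0.951), Iqgap1 and Diaph1, Slc38a1 most like Atad2 (r = 0.930), Zfp91 and Malt1, Slc38a2 most like Ndufaf2 (r = 0.916), Pde4d and Sat1, and Slc7a6 most like Map4 (r = 0.919), Atp8b4 and Fam120a.

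**Figure D3:**
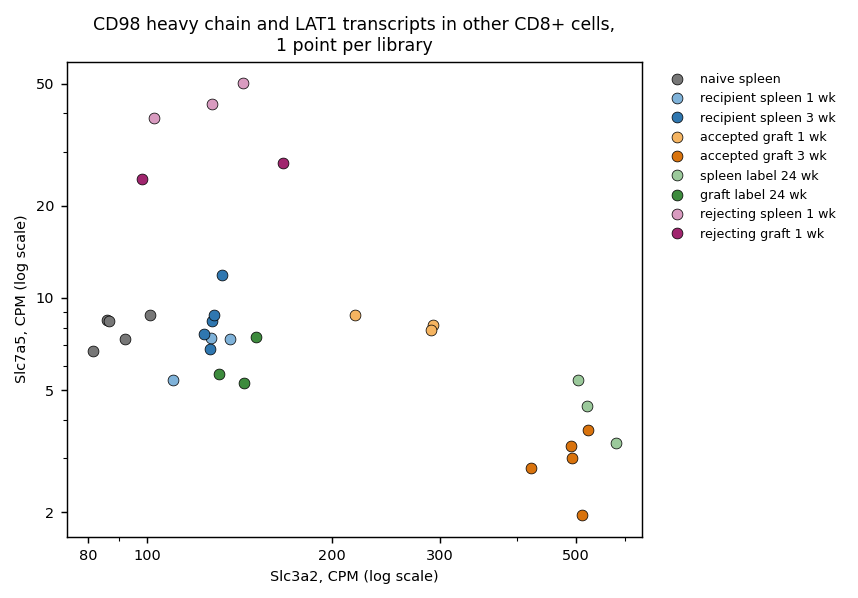
CPM of Slc3a2 (horizontal, log scale) and Slc7a5 (vertical, log scale) in other CD8+ cells, 1 point per library and 1 color per group. The accepted grafts at 3 weeks and the libraries labelled spleen at 24 weeks lie at high Slc3a2 and low Slc7a5, and the rejecting libraries at the top left.

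The share of dividing cells was highest in grafts at 1 week. They made up 24.1% to 48.2% of the CD8 cells of the 3 accepted grafts (5061 cells) and 13.7% and 61.1% of those of the 2 rejecting grafts (583 cells), against 0.508% to 1.31% in accepted grafts at 3 weeks (186 cells) and 2.61% to 10.1% in recipient spleens at 1 week (280 cells). Within the accepted grafts at 1 week, Slc7a5 was the 1 member called between the classes in the fit below. Dividing cells held 19.2, 11.1 and 16.2 CPM of Slc7a5, and other cells of the same libraries 8.13, 7.88 and 8.82 CPM. The dividing class was higher in 3 of 3 libraries and the classes did not overlap.

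In the fit with the library as a block, 1 of 6 members was called between dividing and other cells of the accepted graft, against 33.5% of 13015 genes tested (20.7% higher). Slc7a5 was 1.85-fold higher in dividing cells (log2 fold change 0.89 ± 0.16, adjusted p = 2.46e-07), at the 90.9th percentile of all genes. CD4 T cell markers were at 26.9 to 55.6 CPM in dividing and 8.66 to 21.1 CPM in other cells of these grafts, and myeloid markers at 25.6 to 55.9 CPM and 37.0 to 101 CPM. Without cells holding a UMI of another lineage Slc7a5 was again called (0.93). The remaining members lay between -0.14 and 0.14, with Slc3a2 at -0.14 ± 0.07 (adjusted p = 0.124), Slc7a6 at 0.14 ± 0.16, Slc38a1 at 0.04 ± 0.08, Slc38a2 at 0.02 ± 0.07 and Slc1a5 at 0.01 ± 0.09. The call of Slc7a5 ended under DESeq2 (0.79, adjusted p = 0.278) and when each cell was thinned to 1000 UMIs before it was assigned to a class (0.25, adjusted p = 0.799). Thinning left 2109 cells in the dividing class and values of 11.9 ± 3.52 CPM (SD, n = 3) in dividing and 10.4 ± 0.588 CPM in other cells. Dividing cells were also the deeper ones, with a median of 3939 to 7625 UMIs per cell against 1778 to 3286 in other cells, and the part of this depth in the class assignment was not tested apart from thinning. Slc3a2 was lower in dividing cells in 3 of 3 libraries (271, 258 and 197 CPM against 292, 290 and 218 CPM), and passed the test with rescaled libraries (-0.22, adjusted p = 0.0173), without cells holding a UMI of another lineage (-0.18, adjusted p = 0.0399) and with 3 against 0 division markers (-0.20, adjusted p = 0.0267). With rescaled libraries the share of higher calls over all genes went from 61.7% to 51.1%.

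The members were also compared in UMIs per cell. Dividing cells of accepted grafts held 0.0865 ± 0.0133 UMIs of Slc7a5 per cell (SD, n = 3) against 0.0217 ± 0.00654 in other cells. For Slc3a2 the values were 1.45 ± 0.631 and 0.718 ± 0.315 UMIs per cell, for Slc38a2 1.26 ± 0.452 and 0.561 ± 0.202, for Slc38a1 0.861 ± 0.282 and 0.378 ± 0.122, and for Slc1a5 0.291 ± 0.108 and 0.130 ± 0.0484. Every one of these means was higher per dividing cell, whereas in CPM Slc7a5 alone passed the test.

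In the dividing class the synthetase list and the glutamine and branched-chain amino acid list were mostly called higher. Of all genes 33.5% were called and 20.7% were higher. Of 19 tested aminoacyl-tRNA synthetases 16 were higher and none lower, with a list median of 0.49 against 0.02 for all genes. Vars, the valine enzyme, was higher by 1.13 and Rars, the arginine enzyme, by 0.65. Of 13 genes of glutamine and branched-chain amino acid use 8 were higher and none lower, among them Oat (0.97) and Ppat (0.77), the entry enzyme of purine synthesis. The GCN2 and ATF4 list had 7 of 14 genes higher and 2 lower, with Phgdh and Shmt2, enzymes of serine and one-carbon metabolism, higher by 1.27 and 1.02, while Cebpb fell by 0.36 and Ddit3 fell by 0.27. Of 14 other transporters tested 3 were higher and 2 lower, with Slc7a1 higher by 0.62 and Slc38a10 by 0.31. Of 25 mTORC1 sensing genes 3 were higher and 3 lower. In the MYC and growth nutrient list 6 of 15 genes were higher, including Nolc1 (0.86) and Ldha (0.83), and 3 were lower, including Mxd4, which fell by 0.75.

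**Figure D4:**
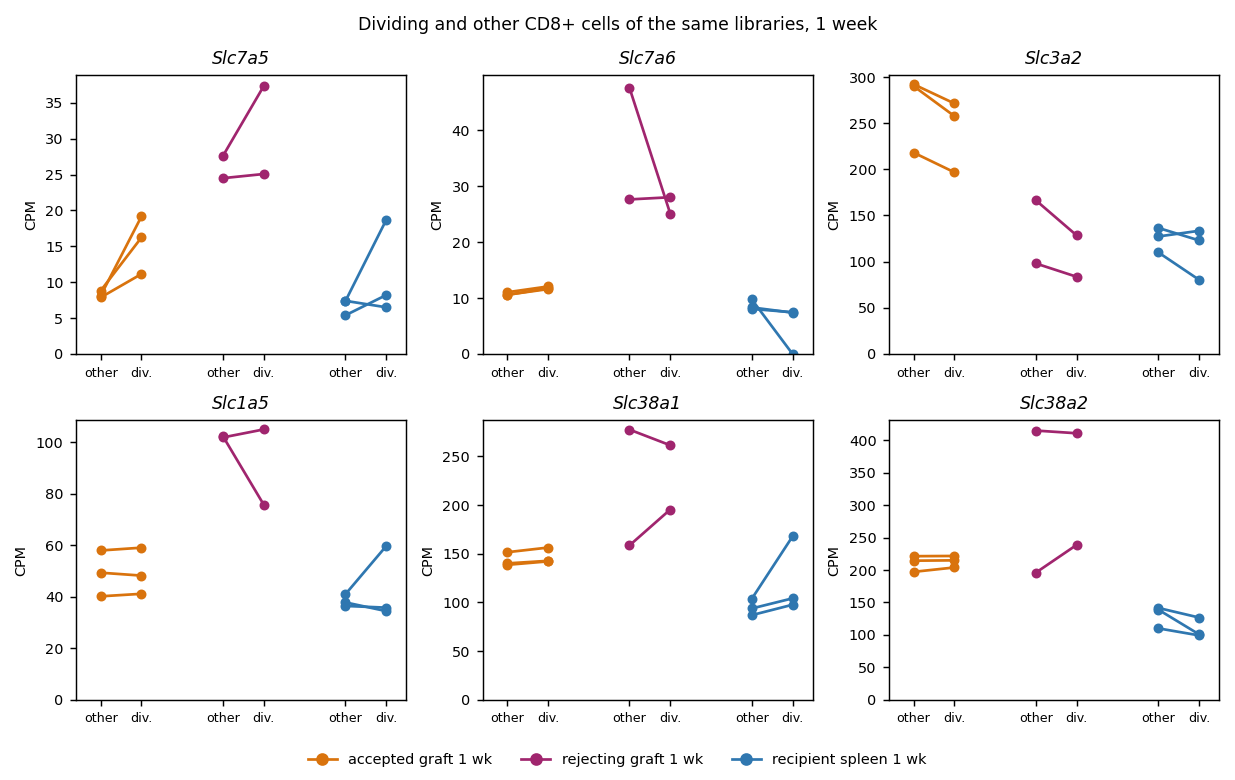
CPM of each member (vertical axis, from 0) in other and in dividing (div.) CD8+ cells, each line joining the 2 classes of 1 library at 1 week in accepted grafts, rejecting grafts and recipient spleens of the acceptance model. Slc7a5 is higher in the dividing class in all 3 accepted grafts (19.2, 11.1 and 16.2 CPM against 8.13, 7.88 and 8.82 CPM), and the lines of the rejecting grafts differ from each other.

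In rejecting grafts the class made no called difference in any member, against 13.4% of all genes. Dividing cells held 37.3 and 25.1 CPM of Slc7a5 and other cells 27.6 and 24.5 CPM (log2 fold change 0.23 ± 0.33, adjusted p = 0.784, 95% interval -0.43 to 0.88). The smallest adjusted p of a member was that of Slc7a6 (-0.62 ± 0.31, adjusted p = 0.207, unadjusted p = 0.0474), with 28.0 and 25.1 CPM in dividing and 27.6 and 47.6 CPM in other cells, so the difference lay in replicate 3. DESeq2 called no member either. Slc3a2 was called in 1 alternative, without cells holding a UMI of another lineage (-0.58, adjusted p = 0.0193). The test of the difference between the class effects of rejecting and accepted grafts called no member, against 0.423% of all genes. In this edgeR fit Slc7a6 (-0.76 ± 0.35) was the 1 member under 0.05 before adjustment (adjusted p = 0.630), and the difference in Slc7a5 was -0.66 ± 0.37 (adjusted p = 0.758, 95% interval -1.39 to 0.07). The called difference of Slc7a5 in accepted grafts was therefore not shown to be absent from rejecting grafts.

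Dividing cells of other groups were few. In recipient spleens at 1 week they held 6.51, 18.6 and 8.20 CPM of Slc7a5, against 7.41, 7.34 and 5.38 CPM in other cells, higher in 2 of 3 libraries and resting on 17 UMIs. In accepted grafts at 3 weeks, 4 of 5 libraries held no Slc7a5 UMI among their 22 to 46 dividing cells and 1 held 29.1 CPM, from 3 UMIs. Slc3a2 of these dividing cells was 390, 476, 291, 555 and 584 CPM, on both sides of the 422 to 523 CPM of the other cells.

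The last comparison set rejecting against accepted grafts at 1 week. In other cells all 6 members were called, 5 higher and 1 lower in rejection, against 60.2% of all genes (48.1% higher and 12.1% lower). Slc7a5 was 3.19-fold higher (log2 fold change 1.67 ± 0.24, adjusted p = 1.69e-07) and Slc7a6 3.26-fold (1.70 ± 0.23, adjusted p = 2.68e-08). Slc1a5 was 2.08-fold higher (1.06 ± 0.15, adjusted p = 1.22e-07), while Slc3a2 was lower, at 0.518 of the accepted level (-0.95 ± 0.15, adjusted p = 8.01e-07). The median of all genes was 0.70 and differed by intron length, from -0.32 in the tenth of genes with the shortest introns to 2.22 in the tenth with the longest. Relative to the median, Slc7a6 stood at 1.00, Slc7a5 at 0.97, Slc1a5 at 0.36 and Slc3a2 at -1.65. Slc38a1 (0.66 ± 0.14) and Slc38a2 (0.59 ± 0.19) were called higher with plain totals but turned to -0.04 and -0.11 with rescaled libraries, which called neither. Slc38a1, the member with the longest introns, was called lower (-0.49, adjusted p = 0.00328) after removal of the intron length shift, which left Slc7a5 at 1.07 and Slc7a6 at 0.79, both still called, and without rejecting replicate 2 its plain difference was 0.15 (adjusted p = 0.542). The call of Slc38a2 also ended without rejecting replicate 2, where it turned to -0.11 (adjusted p = 0.759), and under DESeq2 (-0.08). Over all genes 79.9% of the calls were higher with plain totals and 49.99% with rescaled libraries. Myeloid markers were at 128 to 166 CPM in rejecting and 37.0 to 101 CPM in accepted grafts, and CD4 T cell markers at 6.58 to 7.21 CPM and 8.66 to 21.1 CPM. All 6 members were again called without cells holding a UMI of another lineage.

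In the dividing cells of the same grafts 5 members were tested, since Slc7a6 did not pass the filter on low counts, and all 5 were called, 4 higher and 1 lower, against 63.3% of 7370 genes (48.1% higher and 15.2% lower). Of all calls 76.0% were higher with plain totals and 49.3% with rescaled libraries. Slc3a2 was lower in rejection (log2 fold change -1.29 ± 0.23, adjusted p = 8.23e-06), with 128 and 83.6 CPM against 271, 258 and 197 CPM. Myeloid markers were at 113 to 124 CPM in these rejecting and 25.6 to 55.9 CPM in the accepted dividing cells, and CD4 T cell markers at 8.88 to 14 CPM and 26.9 to 55.6 CPM. Without cells holding a UMI of another lineage 4 members were called, 3 higher and Slc3a2 lower (-1.44), and Slc7a5 was not tested. Slc7a5 was higher (0.87 ± 0.33, adjusted p = 0.0214), and so were Slc1a5 (0.80 ± 0.21), Slc38a1 (0.59 ± 0.17) and Slc38a2 (0.55 ± 0.18), around a median of all genes of 0.52. Of the tested members Slc3a2 alone was called with rescaled libraries, under DESeq2 and with thinned cells, where Slc7a5 was not tested. The call of Slc7a5 also ended without accepted replicate 2 (0.70, adjusted p = 0.0875) and without rejecting replicate 3 (1.26, adjusted p = 0.0517), and those of Slc38a1 (0.41, adjusted p = 0.0558) and Slc38a2 (0.16, adjusted p = 0.451) without rejecting replicate 2. Removal of the intron length shift turned Slc38a1 to -0.43 (adjusted p = 0.0418) and ended the call of Slc7a5 (0.31, adjusted p = 0.476), which also ended with 3 against 0 division markers (0.63, adjusted p = 0.0817).

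Other amino acid transporters were higher in 9 of 12 tested genes in the other cells of rejecting grafts, with none lower and a list median of 1.29 against 0.70 for all genes, of which 48.1% were higher and 12.1% lower. Slc16a10 was higher by 2.62 and Slc38a10 by 1.40. Of 19 synthetases 13 were higher and none lower, with a median of 0.73 near the 0.70 of all genes, and with Rars at 1.62 and Sars at 1.46. Of 25 mTORC1 sensing genes 10 were higher and 7 lower (median 0.46). Rptor (2.54) and Depdc5 (2.42), a subunit of the GATOR1 brake on mTORC1, were higher, whereas Lamtor1 fell by 1.18 and Lamtor5 fell by 0.99. Cebpb fell by 2.12 and Phgdh fell by 1.06 in the GCN2 and ATF4 list, where 4 of 15 genes were higher and 4 lower. Odc1 fell by 1.09 in the glutamine list, where 6 of 13 genes were higher and 4 lower. Hk2, a hexokinase, was higher by 2.28 and the MYC antagonist Mxi1 by 2.20 in the growth nutrient list, where 11 of 15 were higher and 1 lower. These counts are from plain totals and were not repeated with rescaled libraries or with the intron length shift removed.

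Within the rejection model, the graft differed from the recipient spleen in 2 members, both higher in the graft, against 26% of all genes (17.8% higher). Of all calls 68.4% were higher with plain totals and 55.2% with rescaled libraries. Slc38a1 was 2.21-fold higher in the graft (log2 fold change 1.14 ± 0.18, adjusted p = 3.14e-06) and Slc1a5 1.97-fold (0.98 ± 0.21, adjusted p = 4.65e-04). Slc3a2 did not pass (0.21 ± 0.19, adjusted p = 0.459), nor did Slc7a5 (-0.67 ± 0.27, adjusted p = 0.0668), Slc7a6 (0.77 ± 0.31, adjusted p = 0.0658) or Slc38a2 (0.11 ± 0.22). B cell markers were at 2.88 to 9.21 CPM in these grafts and 71.5 to 264 CPM in the spleens, and myeloid markers at 128 to 166 CPM and 5.93 to 107 CPM. Slc7a5 was called lower without cells holding a UMI of another lineage (-0.84, adjusted p = 0.0355) and with rescaled libraries (-0.83, adjusted p = 0.0230), as it was under DESeq2 and with the intron length shift removed, and Slc7a6 was called higher without rejecting graft replicate 2 (1.21, adjusted p = 0.0122). The test of the difference between the 2 models in the graft over spleen change called 1 member, against 5% of all genes (1.7% lower). Over all genes 607 were called, and 291 without rejecting spleen replicate 1. Of all calls 65.9% were higher with plain totals and 43.2% with rescaled libraries. This was Slc3a2, whose rise in the graft was smaller in rejection than in acceptance (-0.89 ± 0.22, adjusted p = 0.0137). The call ended without rejecting graft replicate 3 (-0.62, adjusted p = 0.108), without rejecting spleen replicate 1 (-0.80, adjusted p = 0.100), in the fit of only the groups compared (-0.91, adjusted p = 0.109) and with cells thinned to 1000 UMIs (-0.68, adjusted p = 0.306). The difference in Slc7a5 was -0.99 ± 0.34 (adjusted p = 0.0823) with plain totals and -1.13 (adjusted p = 0.0452) with rescaled libraries, and it also passed under DESeq2 and with the intron length shift removed. Without rejecting graft replicate 2 Slc38a2 was called (-1.29, adjusted p = 0.00747), and without rejecting graft replicate 3 Slc38a1 was called (0.84, adjusted p = 0.00885).

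Amino acid transporters typical of the kidney tubule were scarce. Of 8 such genes 3 (Slc3a1, Slc6a19 and Slc6a20b) were present in all matrices, and they summed to 1.66 to 2.89 CPM in accepted grafts at 1 week, 2.78 to 3.93 CPM at 3 weeks and 13.96 to 21.4 CPM in naive spleens. Recipient spleens held 6.52 to 9.55 CPM at 1 week and 10.9 to 14.9 CPM at 3 weeks, so these genes did not mark the graft. At 24 weeks the libraries labelled graft held 11.8 to 15.1 CPM and those labelled spleen 1.80 to 2.97 CPM. Rejecting grafts held 3.29 to 7.21 CPM and rejecting spleens 6.72 to 14.3 CPM.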

How the data were processed

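Viable CD45+ cells of grafts and spleens were sequenced as single-cell libraries. Per the labels and methods, the authors used Cell Ranger with mm10 (versions not given in the sources used here), removed cells in Seurat on UMI, mitochondrial and gene limits not given in the sources used here, and named cell types by hand. They deposited whole UMI counts per gene and cell, and 9 CD8 matrices were used. The barcode tags split the cells into 32 libraries. The members and lists were chosen with earlier results of these data known.

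Counts of Cd8a or Cd8b1 cells were summed per library and class where at least 20 cells were held, with no doublet caller run. CPM used plain library totals. Sums were tested with edgeR 4.0.16 in R 4.3.3 (filterByExpr, quasi-likelihood, Benjamini-Hochberg over all genes tested, threshold 0.05), in 1 fit over 32 libraries for other cells and with a library block between classes. Adjusted p-values are from this edgeR fit unless DESeq2 (1.42.0) is named, and an SE is the log2 fold change over the root of F. Because p-values measure the spread between tags, they include animals only if each tag is 1 mouse. Alternatives were TMM factors (called rescaled libraries here), DESeq2, cells thinned to 1000 UMIs, cells without a UMI of Cd4, Cd79a, Ms4a1, Lyz2 or Csf1r, dividing and other cells summed together, 3 against 0 division markers, only the groups compared, no block, a replicate block by tag number, removal of the median shift of 10 groups of genes by intron length (these last were chosen after seeing the data, except the intron removal in the comparisons of rejection with acceptance), and leaving out each library. The script was tested on simulated data. Genes were named by a rule, namely all members and, per list and comparison, the 2 highest and 2 lowest called genes averaging 20 CPM or more. Not every list gene picked is printed. In every comparison the counts and changes of list genes are from plain totals and were not repeated under the alternatives. Other deposited matrices of total cells were not used here.

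The tag numbers of graft and spleen were checked for pairing on deviations from group means. At 3 weeks every same-numbered pair had a correlation over 0.1 (0.101 to 0.470), and at 1 week, 24 weeks and in rejection at least 1 pair did not.
One gene picked for its likeness to a member is not reported here.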

Additional observations from a re-analysis of the deposited data

Results flagged for a closer look

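Slc7a5 in dividing cells of accepted grafts at 3 weeks was 29.1 CPM in replicate 3 and 0 CPM in the other 4 libraries, so the highest library stood apart from the rest by the whole range. It rested on 3 UMIs, and with so few a single library above 0 always stands apart in this way, so it is given as a value only.

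The graft over spleen change of Slc3a2 differed between rejection and acceptance by -0.89 on the log2 scale in edgeR's interaction test (adjusted p = 0.0137). The call ended without rejecting graft replicate 3 (adjusted p = 0.108), without rejecting spleen replicate 1 (adjusted p = 0.100), in the fit of only the groups compared (adjusted p = 0.109) and with thinned cells (adjusted p = 0.306). Slc3a2 was 2.14-fold higher in the graft in acceptance and 1.16-fold higher in rejection, where it did not pass the test.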

How the results depend on the processing

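Of 685 member results under the alternatives, 583 kept their direction and side of the threshold and 43 reversed in direction. With the direction kept, 26 newly passed and 33 lost the threshold. For 546 results without 1 library these numbers were 510, 17, 5 and 14. A result that reversed and also lost its call is counted as reversed only, as with rescaled libraries for Slc38a1 and Slc38a2 in rejecting against accepted grafts. The causes were not tested. Lone rejecting libraries were assumed to vary like the other groups.

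The reversed values are log2 fold changes. With TMM factors, Slc7a6 was 0.013 in accepted grafts against naive spleens, -0.11 from 1 to 3 weeks and 0.11 at 24 weeks. Slc38a2 was 0.15 in recipient spleens at 1 week, -0.11 in rejecting against accepted grafts and -0.051 in rejecting grafts against their spleens. Slc38a1 was -0.043 in rejecting against accepted grafts. Between the classes of accepted grafts, Slc1a5 was -0.063, Slc38a1 -0.038 and Slc38a2 -0.056. Under DESeq2, Slc7a6 was 0.022, -0.13 and 0.089 in the same comparisons, Slc38a2 was 0.18, -0.078 and -0.065, Slc1a5 was 0.015 in recipient spleens at 1 week, Slc3a2 was -0.0023 in rejecting grafts against their spleens, and between classes Slc1a5 was -0.070, Slc38a1 -0.044 and Slc38a2 -0.062. With the intron length shift removed, Slc7a6 was 0.076, -0.22 and 0.16, and -0.014 in the graft against the spleen at 3 weeks. Slc38a1 was -0.49 in rejecting against accepted grafts and -0.43 in their dividing cells, and against their spleens Slc3a2 was -0.026 and Slc38a2 -0.11. With thinned cells, Slc38a1 was -0.035 in recipient spleens at 3 weeks and Slc7a5 0.21 in the difference of class effects. Without cells of other lineages, Slc7a5 was -0.065 against naive spleens and -0.11 between classes in rejecting grafts, Slc38a1 -0.012 in recipient spleens at 3 weeks and Slc38a2 -0.0020 between classes in accepted grafts. With 3 against 0 markers, Slc7a5 was -0.23 against naive spleens and -0.38 between classes in rejecting grafts, and Slc1a5 -0.042 between classes in accepted grafts.

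The number of called members against naive spleens was 4 in place of 2 with TMM, DESeq2 and the intron shift removed. In dividing cells of rejecting against accepted grafts it was 1 in place of 5 with TMM, DESeq2 and thinning. Between classes of accepted grafts it was 2 in place of 1 with TMM, without other lineages and with 3 against 0 markers, and 0 with DESeq2 and thinning. Between classes of rejecting grafts it was 1 in place of 0 without other lineages. For the graft over spleen difference between models it was 2 in place of 1 with TMM, DESeq2 and the intron shift removed, and 0 with thinning and with only the groups compared. In recipient spleens it was 0 in place of 1 at 3 weeks with thinning and 2 with only the groups compared, and 1 in place of 3 at 1 week with the intron shift removed.

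Without the library block between classes, Slc1a5 was -0.0054 in accepted grafts, Slc38a1 -0.024 and Slc38a2 -0.022 in rejecting grafts, and -0.059 and -0.039 in the difference of class effects. The replicate block by tag number changed no call of a member. By the limit of 0.1 on every pair's correlation the pairing held at 3 weeks only, although 3 of 5 pairs there, 3 of 3 at 1 week, 2 of 3 at 24 weeks and 2 of 2 in rejection correlated best with their own number. With the block 5 members were called at 3 weeks, as without. In rejecting grafts against their spleens it called 2 members and took the genes called from 3161 to 1273.

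Without 1 library, the number of called members ran from 2 to 5 in dividing cells of rejecting against accepted grafts, 0 to 2 for the difference between models, and 1 to 2 in recipient spleens at 3 weeks. Slc38a2 ran from -0.11 to 0.98 in rejecting against accepted grafts, -0.59 to 0.50 against their spleens and -0.089 to 0.084 in recipient spleens at 1 week. Slc3a2 ran from -0.28 to 0.48 in rejecting grafts against their spleens, Slc7a6 from -0.40 to 0.094 at 24 weeks, and in recipient spleens at 3 weeks Slc7a5 from -0.0082 to 0.19 and Slc38a1 from -0.0082 to 0.053. Between classes, Slc1a5 ran from -0.0023 to 0.031 in accepted grafts, and in rejecting grafts Slc1a5 from -0.43 to 0.043, Slc38a1 from -0.086 to 0.30, Slc38a2 from -0.014 to 0.28 and Slc7a6 from -0.92 to 0.020. In the difference of class effects Slc1a5 ran from -0.44 to 0.033, Slc38a1 from -0.12 to 0.27 and Slc38a2 from -0.033 to 0.27.

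Thinning took the genes called from 8126 to 5049 against naive spleens, from 5417 to 3114 and from 7367 to 3860 in grafts against spleens at 1 and 3 weeks, from 5741 to 2867 and from 969 to 115 in recipient spleens, from 5760 to 2581 at 24 weeks, from 3161 to 1765 in rejecting grafts against their spleens, from 607 to 188 for the difference between models, from 4668 to 2234 in dividing cells, and from 4365 to 1317, 1743 to 393 and 55 to 10 between classes. DESeq2 gave 2339, 1107 and 13 between classes, and the fit without the library block gave 7 for the difference of class effects. Without 1 library the classes of rejecting grafts gave 834 to 1099 genes, the difference of class effects 35 to 73 against 55 in all libraries (35 without accepted graft replicate 2 or rejecting graft replicate 3), and the difference between models 291 to 691, the lowest without rejecting spleen replicate 1. The difference between models gave 333 genes without other lineages and 207 with only the groups compared, where rejecting grafts against their spleens gave 1557.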
